A study of Mus musculus with 31 samples.

Results

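Genes of cholesterol synthesis, uptake and esterification were examined in the liver of mice that lacked either the β isoform of the carbohydrate response element binding protein (ChREBP) or both of its isoforms. The set held 32 listed genes, chosen by gene name for their place in the pathway. The array carried 65 probes for 31 of the names, and 61 probes of 30 genes passed the filter on dim spots, among 36059 probes and 23968 gene names tested in all. Acat2, which condenses acetyl-CoA at the entry of the pathway, was not a gene name on the array. Npc1l1, a carrier of dietary sterols, had 1 probe that was well above background on 2 of 31 arrays and was not tested.

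Each of the 31 mice gave 1 one-color array. The ChREBPβ line gave 8 deficient mice and 8 WT littermates, called β-line WT mice below, and the total ChREBP-KO line gave 7 KO mice and 8 WT littermates, called total-line WT mice (KO replicate 3 was not analysed here). All were male mice on the C57BL6/J background, fed regular diet, taken after a fast of 24 hours and 18 hours of refeeding with water that held 20% glucose. ChREBPβ-deficient mice carried a CRISPR/Cas9 deletion of the exon of Mlxipl that is particular to the β isoform. Total ChREBP-KO mice were Mlxipl-null and lacked ChREBPα and β. Both deletions were present in the whole body, and the ages of the mice were not given in the sources used here. The 2 lines were separate, and each deletion was compared with the WT littermates of its own line.

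Cholesterol is built from acetyl-CoA. Enzymes of the mevalonate branch make activated isoprene units, these are joined to squalene, squalene is closed to lanosterol, and a series of demethylations, reductions and double bond shifts turns lanosterol into cholesterol. Transcription of most of these enzymes is driven by SREBP2, which is released from the endoplasmic reticulum when membrane sterol is low, so that the genes of the pathway tend to move together. ChREBP responds to glucose metabolites and is best known in the liver for driving glycolysis and fatty acid synthesis. Sterol esters are made inside cells by the SOAT enzymes and in plasma by LCAT.

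Promoter sequence of the members was examined because SREBP2 is known to act beside the CCAAT-binding factor NF-Y, and because ChREBP binds elements built from E-boxes. RefSeq windows on GRCm38.p6, from 250 bases before to 50 bases after the transcript start, were at hand for 25 of the 32 genes. The 5 stretches printed here are the 180 bases before the start of members to which the results below return: Hmgcs1, Msmo1 and Tm7sf2, which were low in total-line WT mice, Hsd17b7, whose WT values did not overlap between the lines, and Sc5d, which was low in total ChREBP-KO mice. Capitals mark the CCAAT box on either strand, the sterol regulatory element TCACNCCAC and the E-box CACGTG.
Hmgcs1, chr13:119690171-119690350, plus strand: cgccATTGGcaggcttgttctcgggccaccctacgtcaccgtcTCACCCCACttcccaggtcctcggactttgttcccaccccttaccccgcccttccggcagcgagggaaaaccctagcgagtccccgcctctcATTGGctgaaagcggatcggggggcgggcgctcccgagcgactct
Msmo1, chr8:64733579-64733758, minus strand: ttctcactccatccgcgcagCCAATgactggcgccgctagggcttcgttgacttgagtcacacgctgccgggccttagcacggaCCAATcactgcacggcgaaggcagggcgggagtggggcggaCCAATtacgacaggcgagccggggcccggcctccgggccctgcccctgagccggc
Hsd17b7, chr1:169969206-169969385, minus strand: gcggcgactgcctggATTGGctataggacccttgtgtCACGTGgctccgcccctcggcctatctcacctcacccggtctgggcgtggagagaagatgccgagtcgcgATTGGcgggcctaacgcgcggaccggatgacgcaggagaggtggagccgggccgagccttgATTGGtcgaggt
Tm7sf2, chr19:6067851-6068030, minus strand: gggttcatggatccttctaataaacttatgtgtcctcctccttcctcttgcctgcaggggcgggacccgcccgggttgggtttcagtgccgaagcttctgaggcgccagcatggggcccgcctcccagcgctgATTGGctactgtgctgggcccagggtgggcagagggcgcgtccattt
Sc5d, chr9:42264301-42264480, minus strand: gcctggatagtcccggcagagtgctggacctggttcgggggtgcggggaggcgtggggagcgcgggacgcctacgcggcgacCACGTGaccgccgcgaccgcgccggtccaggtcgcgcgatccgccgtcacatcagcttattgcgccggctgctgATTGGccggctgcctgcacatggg
CCAAT, searched on both strands, stood in 37.4% of all 32851 promoter windows (41.1% of 27025 genes) and in those of 23 of the 25 members (92%), all but Aacs and Acat2. TCACNCCAC stood in 1.24% of all windows (1.44% of genes) and, among the members, in that of Hmgcs1 only (4%). CACGTG stood in 7.15% of all windows (8.09% of genes) and in those of Hsd17b7, Sc5d, Dhcr7 and Rdh11 (16% of the members). These are matches of letters in a window of fixed length and were not tested.

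Values are log2 of the quantile-normalized median signal, and a gene is described by its probe of highest mean signal. Of the 30 genes, 29 were well above background on all 31 arrays, and Soat1 on 26. The hepatocyte markers were measured 7 of 7, with summed signal of 1485000 to 1645000 across all mice. The targeted gene, Mlxipl, fell by 1.16 in total ChREBP-KO mice (adjusted p = 8.05e-13, limma) and by 0.45 in ChREBPβ-deficient mice (adjusted p = 0.0152) by its main probe, while another probe gave -0.05 and -0.06 and was not called. The remaining probe fell by 0.59 in total ChREBP-KO mice (adjusted p = 0.00313) and gave -0.46 in ChREBPβ-deficient mice, without a call (adjusted p = 0.909). Where these probes lie relative to the deleted parts was not established. In the tests that follow, a gene was called at an adjusted p under 0.05 in a limma model of all 4 groups, with adjustment over all probes. Some arrays stood apart in markers of other cell types. Krt19 and Epcam, markers of bile duct cells, were 11.03 and 8.79 in total ChREBP-KO replicate 5, against at most 8.55 and 6.56 in the other 6 mice of the group. Cela2a, a pancreatic elastase, was 13.50, 11.99 and 12.11 in total-line WT replicates 2, 7 and 8, against at most 9.99 in the other 5. Cfd, an adipocyte product, was at 12.94 in total ChREBP-KO replicate 6 and at 11.03 and 11.44 in WT replicates 2 and 5, against at most 6.01 in the other 12 mice of the line. In the ChREBPβ line Cfd ran from 6.44 to 12.60, so that these arrays stood apart within their own line only. Counts of called genes are therefore also given without these arrays, an alternative chosen after seeing the data. All of them are of the total line. Without those high in Cfd, the comparison of the 2 lines sets total-line mice low in Cfd against ChREBPβ-line mice that are all higher in it. In bulk liver, fewer cells of a type and less RNA per cell cannot be told apart.

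Compared with WT littermates, 6 of the 30 genes were higher (20%) and 6 were lower (20%) in total ChREBP-KO mice, against 14.4% and 14.8% of all genes tested. These shares lie near those of all genes and are given as a description. The genes that fell were Aacs, Dhcr7, Pmvk, Fdps, Sc5d and Lbr, and those that rose were Msmo1, Idi1, Tm7sf2, Fdft1, Cyp51 and Lcat. The median log2 difference over the 30 genes was 0.05, beside 0.0078 over all genes. Without the 4 arrays high in bile duct or pancreatic markers the counts were 10 higher and 3 lower, against 11.8% and 12.8% of all genes in the same setting. Without the 3 arrays high in Cfd 10 were higher and 5 lower, against 13.4% and 13.8% of all genes.

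Markers of cell types also differed between total ChREBP-KO mice and their littermates. Of the hepatocyte markers 2 of 7 were higher, Cyp2e1 by 0.69 and Cps1 by 0.44, and their summed signal was 1620000 to 1645000 in KO mice and 1487000 to 1626000 in WT littermates. Of 7 measured adipocyte markers 1 was higher, Car3, a carbonic anhydrase, by 0.79. Their summed signal was 159100 to 205700 in KO mice and 79880 to 137100 in WT littermates, so that the groups did not overlap. Of the 7 differences, however, 2 lay above 0 and 5 below, with a median of -0.07. Plin1, a lipid droplet protein of adipocytes, differed by -0.08 (adjusted p = 0.522). Of 6 measured pancreatic markers 3 were lower, Cela3b, Ctrb1 and Cel, at -1.45, -0.77 and -0.80, with summed signals of 14770 to 35910 against 18140 to 35510. Of 6 endothelial and stellate markers Reln and Dcn were higher, by 0.80 and 0.40, of 5 bile duct markers Epcam by 0.97, of 4 red blood cell markers Alas2 by 0.34, and none of 5 Kupffer cell markers was called. The part of these markers in the counts was not tested.

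**Figure D1:**
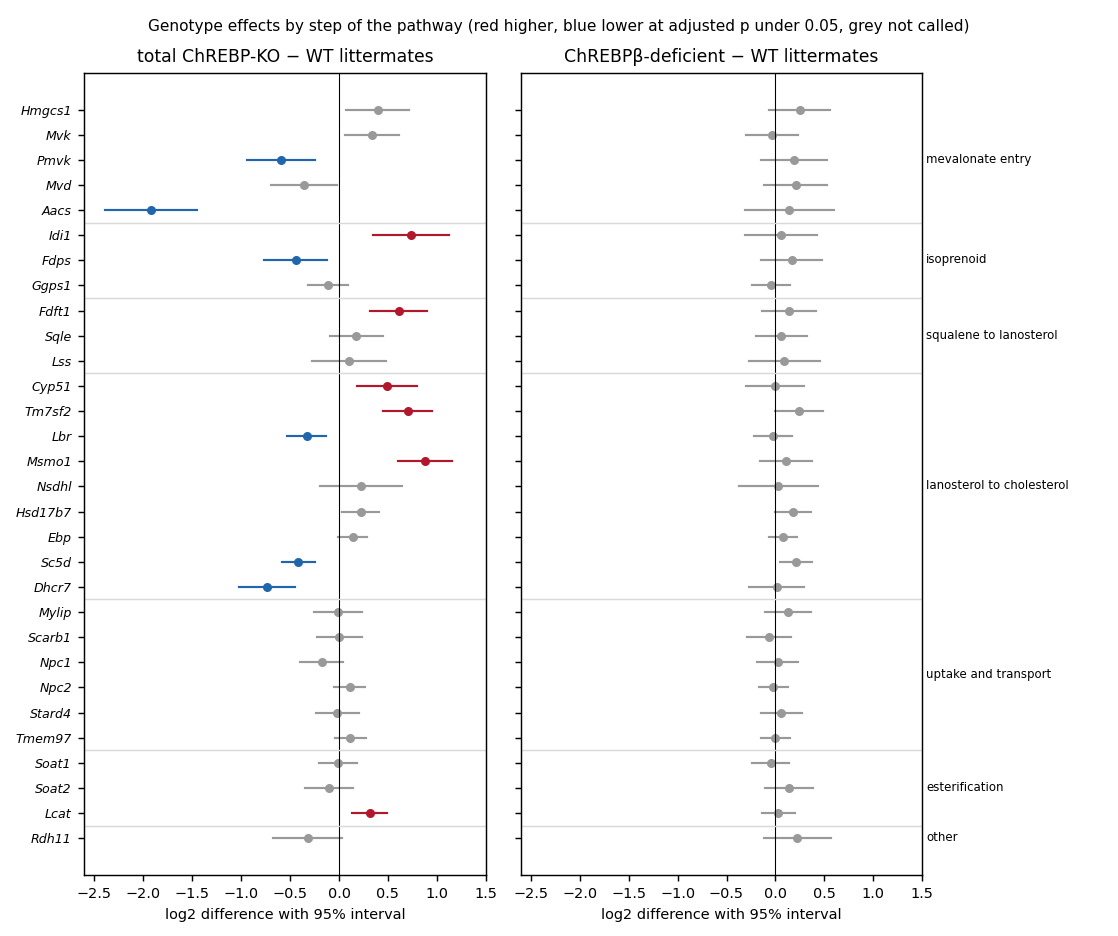
Log2 difference between deficient mice and their WT littermates for the 30 measured genes, ordered by step of the pathway (vertical axis), in total ChREBP-KO mice (n = 7 against 8) and in ChREBPβ-deficient mice (n = 8 against 8). Points are limma estimates and bars 95% confidence intervals; red and blue mark genes called higher and lower at an adjusted p under 0.05. In total ChREBP-KO mice 6 genes lie above and 6 below 0 with a call, from -1.92 for Aacs to 0.88 for Msmo1, while in ChREBPβ-deficient mice none was called.

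Among the genes that feed carbon into the mevalonate branch, the change was largest for Aacs, the cytosolic enzyme that activates acetoacetate to acetoacetyl-CoA for lipid synthesis. Its probe lies at chr5:125997524-125997583 on mm9, the build of the array's annotation. In the 8 WT littermates Aacs ran from 13.05 to 14.34 with a median of 13.58, and in the 7 total ChREBP-KO mice from 10.84 to 12.48 with a median of 11.76. All 7 KO mice lay below every WT littermate, the only member with such a separation in this comparison by its main probe (4.45% of all genes tested were separated in that direction). By their main probes no member was separated upward (3.3% of all genes). Among the other probes, 1 of Sc5d was separated downward and 1 of Msmo1 upward. The difference was -1.92 ± 0.23 (SE) on the log2 scale, a 3.80-fold fall (adjusted p = 1.49e-07). Pmvk, the kinase that adds the second phosphate to mevalonate, fell 1.51-fold (adjusted p = 0.00795), from 13.59 to 14.61 in WT littermates, median 14.11, to 12.63 to 14.17 in KO mice, median 13.50. The groups overlapped, with 4 of 7 KO mice below every WT littermate. The second Pmvk probe gave a difference of -0.62 (adjusted p = 0.00875). Without the 4 arrays high in bile duct or pancreatic markers the main probe gave -0.48 and was not called (adjusted p = 0.05).

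The remaining enzymes of this step were not called by their main probe. Hmgcs1, which makes HMG-CoA, differed by 0.39 (95% interval 0.07 to 0.72, adjusted p = 0.0626) and the kinase Mvk by 0.34 (adjusted p = 0.0611). A second Mvk probe was called higher, by 0.45 (adjusted p = 0.0131). The decarboxylase Mvd differed by -0.35 (adjusted p = 0.11), the lowest value among the 18 genes that were not called. The probes named Acat3, one of which also lists the Acat2 transcript, gave differences of 0.11 (adjusted p = 0.341) and 0.11 (adjusted p = 0.326), and they are not taken as Acat2.

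The isoprenoid step was split between its enzymes. Idi1, the isomerase that interconverts the activated isoprene units, ran from 13.31 to 14.76 in WT littermates with a median of 13.91 and from 13.77 to 15.14 in KO mice with a median of 14.88. It rose 1.67-fold (log2 difference 0.74 ± 0.19 SE, adjusted p = 0.00332), although the groups overlapped and 4 of 7 KO mice lay above every WT littermate. Fdps, which joins these units to farnesyl diphosphate, ran from 15.64 to 16.26 in WT littermates, median 16.02, and from 14.52 to 16.23 in KO mice, median 15.65. It fell 1.36-fold (adjusted p = 0.034), the highest adjusted p of the 12 calls, and without the 4 arrays named above its difference was -0.26 (adjusted p = 0.199). The call was also lost on leaving out any 1 of 5 mice (total-line WT replicates 1, 2 and 4 and KO replicates 5 and 7), with differences from -0.55 to -0.27 over all mice left out in turn, and it was not made in the deposited table (adjusted p = 0.0678). Ggps1, which makes geranylgeranyl diphosphate for protein prenylation, was not called by its main probe, and its 6 probes ranged from -0.11 to 0.24, with 1 of them called (0.24, adjusted p = 0.0256).

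Fdft1, the squalene synthase that commits farnesyl diphosphate to sterols, was higher in total ChREBP-KO mice. Its values were 12.91 to 13.99 in WT littermates, median 13.36, and 13.40 to 14.52 in KO mice, median 14.05. The rise was 1.53-fold (log2 difference 0.61 ± 0.14 SE, adjusted p = 0.00135), with 4 of 7 KO mice above every WT littermate, and a second probe gave 0.72 (adjusted p = 0.00074). The following enzymes, Sqle, the epoxidase, and Lss, the cyclase, differed by 0.18 (adjusted p = 0.351) and 0.10 (adjusted p = 0.733). Lss probes disagreed, since another probe fell by 0.50 (adjusted p = 0.00373) while the first and the remaining one gave 0.10 and 0.09.

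Between lanosterol and cholesterol, 3 of 9 enzymes were higher and 3 lower, beside 14.4% and 14.8% of all genes. Msmo1, the C4-methyl oxidase (probe at chr8:67196982-67197041 on mm9), rose most of the 6. WT littermates ran from 13.34 to 14.45 with a median of 13.88, and KO mice from 14.33 to 15.29 with a median of 14.75. The rise was 1.84-fold (0.88 ± 0.13 SE, adjusted p = 8.67e-06), with 5 of 7 KO mice above every WT littermate, and the 2 other probes gave differences of 1.0 and 0.94. By the last of these, a dimmer probe, all 7 KO mice lay above every WT littermate. Tm7sf2, a sterol C14 reductase, went from 13.55 to 14.14 in WT littermates, median 13.93, to 14.00 to 15.14 in KO mice, median 14.69. It rose 1.63-fold (adjusted p = 6.69e-05), also with 5 of 7 KO mice above every WT littermate. Cyp51, the lanosterol demethylase, rose 1.40-fold (adjusted p = 0.0143), from a median of 12.59 (12.05 to 13.33) to a median of 13.28 (12.42 to 13.48), with wide overlap.

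Dhcr7, Sc5d and Lbr fell. Dhcr7, the reductase that makes cholesterol from 7-dehydrocholesterol (probe at chr7:151033874-151033933 on mm9), ran from 11.32 to 12 in WT littermates with a median of 11.65, and from 10.05 to 11.46 in KO mice with a median of 10.95. It fell 1.67-fold (-0.74 ± 0.14 SE, adjusted p = 0.00015), and 5 of 7 KO mice lay below every WT littermate. Sc5d, the C5 desaturase that works just before Dhcr7, ran from 15.42 to 15.72 in WT littermates, median 15.61, and from 14.73 to 15.46 in KO mice, median 15.28. It fell 1.33-fold (-0.41 ± 0.08 SE, adjusted p = 0.000266), with 6 of 7 KO mice below every WT littermate, and its second probe fell by 1.04 (adjusted p = 3.65e-10), with all 7 KO mice below every WT littermate. Lbr, the lamin B receptor, which carries the same C14 reductase activity as Tm7sf2, fell 1.26-fold (adjusted p = 0.0105), from 10.38 to 11.19 in WT littermates, median 10.94, to 10.34 to 10.85 in KO mice, median 10.53. Of the 2 C14 reductases, Tm7sf2 rose and Lbr fell. The Lbr call was lost without the 4 arrays high in bile duct or pancreatic markers (-0.31, adjusted p = 0.0634). It was also lost within scan day 2 (-0.16, adjusted p = 0.557).

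The last 3 enzymes of this step were not called by their main probe. Hsd17b7, the C3 ketosteroid reductase, differed by 0.22 (adjusted p = 0.0728), but its 2 other probes were called higher, by 0.31 and 0.34 (adjusted p = 0.0281 and 0.0404). Nsdhl, the C4 decarboxylating dehydrogenase, differed by 0.22 by one probe and -0.35 by the other, neither called. Ebp, the C8 to C7 isomerase, differed by 0.14 (adjusted p = 0.161).

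Uptake and transport genes were not called in total ChREBP-KO mice by their main probe. Their 6 measured members lay between -0.18 for Npc1, which exports cholesterol from lysosomes, and 0.12 for Tmem97, a sterol-binding protein of the endoplasmic reticulum. The others were Npc2, the lysosomal partner of Npc1, Stard4, a cytosolic sterol carrier, Scarb1, the HDL receptor, and Mylip, the ligase that sends the LDL receptor to degradation. A second Tmem97 probe was called higher, by 0.20 (adjusted p = 0.0448). Of the esterifying enzymes, Soat1 and Soat2 differed by -0.01 and -0.10 and were not called. Lcat, which esterifies cholesterol on plasma lipoproteins, rose 1.24-fold (adjusted p = 0.00603), from 12.99 to 13.54 in WT littermates, median 13.20, to 13.30 to 13.79 in KO mice, median 13.56. The Lcat call was lost within scan day 1 (0.36, adjusted p = 0.0753) and within day 2 (0.27, adjusted p = 0.145). With the slide as a fixed term it was lost too (0.22, adjusted p = 0.061). Rdh11, a retinal reductase, differed by -0.32 (adjusted p = 0.176).

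**Figure D2:**
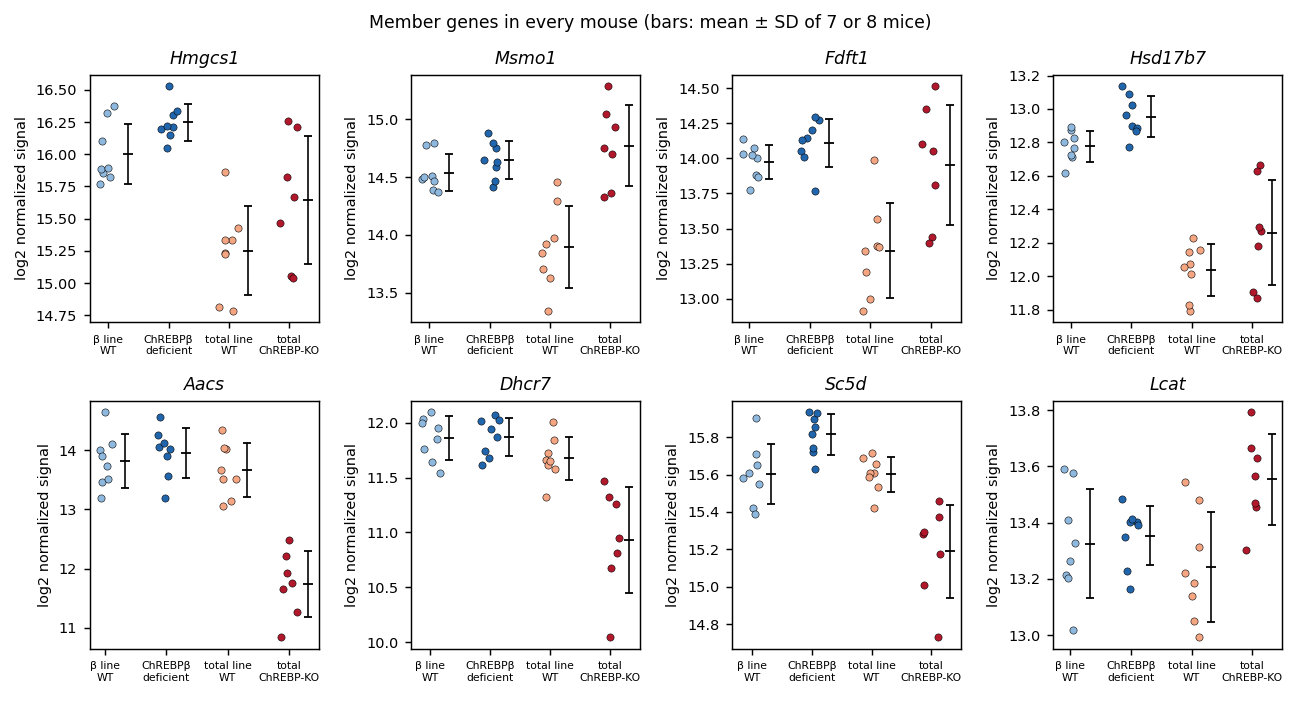
Log2 signal of 8 genes (Hmgcs1, Msmo1, Fdft1, Hsd17b7, Aacs, Dhcr7, Sc5d and Lcat) in every mouse of the 4 groups; dots are mice, bars the mean ± SD (n = 8, 8, 8 and 7). Aacs in total ChREBP-KO mice (10.84 to 12.48) lies below every other mouse, while the lowest group median of Msmo1 is that of the total-line WT mice (13.88).

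Values within the total ChREBP-KO group were widely spread. The SD was largest in that group for 20 of the 30 genes, with a median SD of 0.338, against 0.264 in total-line WT mice, 0.156 in ChREBPβ-deficient mice and 0.192 in β-line WT mice. Replicate 4 was the highest of the 7 KO mice for 19 genes, replicate 5 the lowest for 12 and replicate 7 the lowest for 8. Replicate 5 is the array high in Krt19 and Epcam. Among total-line WT mice, replicate 6 was the lowest of 8 for 16 genes. Spreads and ranks were not computed over all genes. A wider spread of whole arrays and one of these genes therefore cannot be told apart here.

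Scan day and slide were the batches that the array files gave. Both scan days held all 4 groups, and the 6 falls and 6 rises had the same sign on each day. On the first day the falls lay between -1.98 and -0.47 and the rises between 0.36 and 1.07. On the second day the falls lay between -1.92 and -0.16 and the rises between 0.26 and 0.65. Within each day 4 genes were called lower (Aacs, Dhcr7 and Sc5d on both, Lbr on the first and Pmvk on the second). On the first day 5 were called higher, all the rises but Lcat, and on the second 2, Msmo1 and Tm7sf2. With the slide as a fixed term 6 genes were called lower and 3 higher. Shares of all genes were not computed within the days or with the slide term. Time of day markers also moved with genotype: of 12 clock genes 6 were higher and 3 lower in total ChREBP-KO mice. Dbp, a clock output gene, was at 12.2 to 14.0 in KO mice and at 9.0 to 10.9 in their WT littermates, and its part in the cholesterol genes was not tested.

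Loss of ChREBPβ alone gave no call. None of the 30 genes was higher or lower in ChREBPβ-deficient mice than in WT littermates (limma), as against 0% and 0.00417% of all genes. At an unadjusted p under 0.05 there was 1 by its main probe, Sc5d, with a difference of 0.21 (95% interval 0.05 to 0.38). Differences ran from -0.06 for Scarb1 to 0.25 for Hmgcs1, with 22 genes above 0 and a median of 0.07. By the main probes the 95% intervals of all 30 genes lay within -0.377 and 0.593, so that larger changes were outside these intervals. Dimmer probes reached further. One of Hmgcs1 gave 0.56 (95% interval 0.08 to 1.04) and one of Msmo1 0.41 (0.07 to 0.76). Both had an unadjusted p under 0.05 and neither was called (adjusted p = 0.989 for each). Aacs, which fell in total ChREBP-KO mice, differed by 0.14 (-0.32 to 0.59), and Dhcr7 by 0.01 (-0.27 to 0.29). Dbp ran from 8.5 to 14.5 in ChREBPβ-deficient mice and from 8.2 to 15.3 in their WT littermates, and its part was not tested.

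The effects of the 2 deletions were compared directly, as the total ChREBP-KO difference minus the ChREBPβ difference. One gene was higher in this contrast (7.09% of all genes) and 4 were lower (8.25% of all genes). Msmo1 was the higher one, at 0.76 (SE 0.19, adjusted p = 0.00477), although its dimmest probe, at 0.52, was not called (adjusted p = 0.155). The lower ones were Aacs at -2.06 (adjusted p = 3.06e-05), Pmvk at -0.79 (adjusted p = 0.0213), Dhcr7 at -0.75 (adjusted p = 0.00781) and Sc5d at -0.63 (adjusted p = 0.000251). For the other genes changed in total ChREBP-KO mice the difference between deletions was not called, and it was 0.68 for Idi1 (adjusted p = 0.0762), 0.46 for Tm7sf2 (0.0726) and 0.47 for Fdft1 (0.105). Within the first scan day no member was called in this contrast, and the share of all genes there was not computed. Without the 4 arrays high in bile duct or pancreatic markers Pmvk was at -0.67 and was not called (adjusted p = 0.0526). Leaving out total ChREBP-KO replicate 5 or 7, or total-line WT replicate 5, raised the count of higher genes above 1, up to 5.

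**Figure D3:**
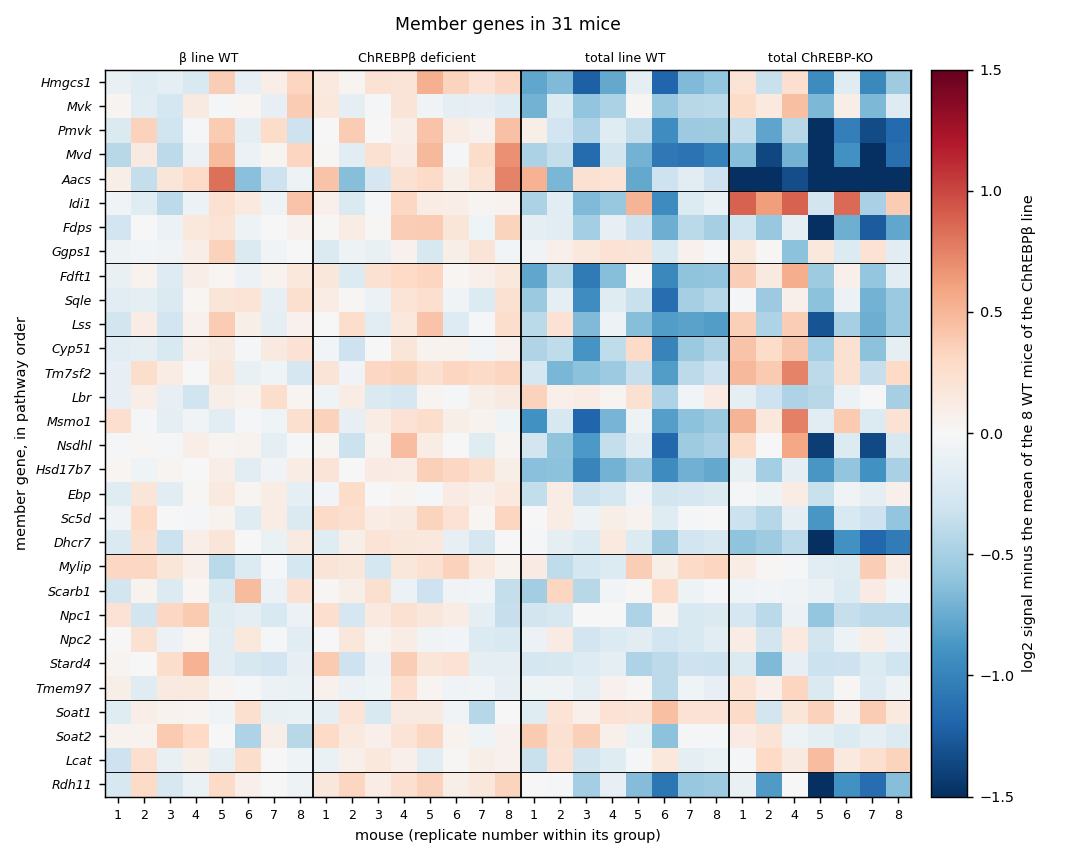
Log2 signal of the 30 genes (rows, by step of the pathway) in the 31 mice (columns, by group), each minus the mean of the 8 β-line WT mice; colors are limited at ±1.5. Blue marks values below that mean: the total-line WT mice are blue in many synthesis genes (median offset -0.48), and Aacs is deepest blue in total ChREBP-KO mice (-2.08 on average).

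The WT mice of the 2 lines, which carry neither deletion, differed in the same pathway. In total-line WT mice 11 of the 30 genes were lower (36.7%) and none was higher than in β-line WT mice (limma, with 17 genes at an unadjusted p under 0.05 in either direction), against 9.36% and 7.79% of all genes. All 11 belonged to synthesis from HMG-CoA onwards, where 16 of 19 measured genes had values below 0 and the median was -0.48. Over all 30 genes the median was -0.31, beside 0.0057 over all genes. Litter, birth and housing of the lines cannot be told apart from the line itself. This contrast shares the total-line WT mice with the comparison above.

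By their main probes Hsd17b7, Tm7sf2 and Nsdhl did not overlap between the WT groups, with every total-line mouse below every β-line mouse (3 of 30 genes, against 1.32% of all genes). No member was separated the other way by its main probe (0.701% of all genes). Among the other probes, one each of Hsd17b7, Lss and Msmo1 was separated downward, while those of Tm7sf2 and Nsdhl overlapped. Hsd17b7 was at 11.79 to 12.23 in total-line WT mice, median 12.06, and at 12.62 to 12.89 in β-line WT mice, median 12.79. The difference was -0.74 ± 0.09 (SE, adjusted p = 1.54e-06), and the other 2 probes gave -0.81 and -0.35, both called. Tm7sf2 was at 13.55 to 14.14 against 14.14 to 14.66 (-0.50, adjusted p = 0.00435), so that the groups nearly touched. By its second probe 7 of 8 total-line mice lay below every β-line mouse. Nsdhl was at 10.70 to 11.72 against 11.72 to 11.98, and its difference of -0.56 had an adjusted p of 0.0489. The Nsdhl call was lost on leaving out any 1 of 14 of the 16 mice. Its second probe gave -0.38 (adjusted p = 0.184), with 0 of 8 total-line mice below every β-line mouse.

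Early enzymes shared the offset. Mvd differed by -0.77 (adjusted p = 0.00113). Hmgcs1 ran from 14.78 to 15.86 in total-line WT mice with a median of 15.28, and from 15.77 to 16.37 in β-line WT mice with a median of 15.89. The log2 difference was -0.75, a 1.68-fold lower signal (adjusted p = 0.00103), with 7 of 8 mice below every WT mouse of the other line. Mvk differed by -0.42 (adjusted p = 0.0255) by its main probe, while its second probe gave -0.20 and was not called (adjusted p = 0.315). The call of the main Mvk probe was lost on leaving out any 1 of 4 of the 16 mice. Next in the pathway, Fdft1 differed by -0.63 (adjusted p = 0.00177) and Sqle by -0.53 (adjusted p = 0.00465). The second Sqle probe gave 0.16 and was not called, but it was dim. Its means were 4.98 and 4.82 in total-line and β-line WT mice, against 12.94 and 13.46 for the main probe. It was well above background on 5 and 6 of 8 arrays of these groups. Lss differed by -0.50 (adjusted p = 0.0506) by its main probe and was called by the other 2, at -0.59 and -0.79. Of the lanosterol enzymes, Msmo1 differed by -0.64 (adjusted p = 0.000923), Cyp51 by -0.48 (adjusted p = 0.0224) and Ebp by -0.20 (adjusted p = 0.0445). The Ebp call was lost on leaving out any 1 of 11 of the 16 mice, and its second probe gave -0.14 (adjusted p = 0.272).

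The offset was not seen in every member. Sc5d differed by 0.00 by its main probe, although its second probe was called, at -0.37 (adjusted p = 0.00354). Pmvk, Rdh11, Fdps and Idi1 differed by -0.40, -0.44, -0.36 and -0.33 and were not called. Lbr and Ggps1 differed by 0.06 and 0.05. Aacs differed by -0.16 (adjusted p = 0.676) and Dhcr7 by -0.19 (adjusted p = 0.376). Uptake, transport and esterification genes were not called by their main probes and ran from -0.29 for Stard4 to 0.17 for Soat1. The 2 other Npc1 probes were called lower, at -0.55 and -0.52 (adjusted p = 0.0288 and 0.0283).

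On both scan days all 11 genes had the sign of the offset, from -0.81 to -0.25 on the first day and from -0.94 to -0.16 on the second. The calls fell to 3 and 5 within the days and to 2, Hsd17b7 and Mvd, with the slide as a fixed term. Shares of all genes were not computed in these settings, so a smaller offset and lower power cannot be told apart by these counts. Without total-line WT replicate 3, 7 genes were called. Other genes differed between the same WT groups. Hba-a1 and Hbb-b1, hemoglobin chains, were higher by 1.05 and 1.04 in total-line WT mice, while Slc4a1 and Alas2 were not called. Cela2a, Cela3b and Ctrb1, pancreatic enzymes, were higher by 2.13, 1.64 and 0.84, and 1 of 7 measured adipocyte markers was called, Cidec, at -2.03, while the median of the 7 was 0.02. Among the clock genes, Clock was higher, and Nr1d1 and Per3 were lower. Dbp ran from 9.0 to 10.9 in total-line WT mice and from 8.2 to 15.3 in β-line WT mice. The summed signal of 4 measured red blood cell markers was 116300 to 164800 in total-line WT mice and 46360 to 97170 in β-line WT mice. That of 6 measured pancreatic markers was 18140 to 35510 against 12450 to 25920. Their part in the offset was not tested. Without the 4 arrays high in bile duct or pancreatic markers, 10 genes were lower and 0 higher, against 7.06% and 5.71% of all genes. In that setting the offset was -0.82 for Hmgcs1 and -0.76 for Hsd17b7. Cyp51 (-0.49, adjusted p = 0.0536) and Nsdhl (-0.57, adjusted p = 0.0665) were no longer called.

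Total ChREBP-KO mice were also set against β-line WT mice, a comparison chosen after seeing the data, which shares samples with all those above and joins the deletion with the offset between lines. In it 12 genes were lower (16% of all genes) and 1, Lcat, was higher (14.1% of all genes). Beside the values against littermates given above, Aacs was at -2.08, Pmvk at -1.0, Dhcr7 at -0.93, Fdps at -0.80, Sc5d at -0.41 and Lbr at -0.27. Lcat was at 0.23 (adjusted p = 0.0427). Msmo1 differed by 0.24 (95% interval -0.04 to 0.51, adjusted p = 0.194), Idi1 by 0.41 (adjusted p = 0.1) and Tm7sf2 by 0.20 (adjusted p = 0.233). Fdft1 and Cyp51 were at -0.020 and 0.01. The remaining genes called lower were Mvd at -1.12, Rdh11 at -0.76, Hsd17b7 at -0.52, Sqle at -0.35, Npc1 at -0.35 and Stard4 at -0.31.

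**Figure D4:**
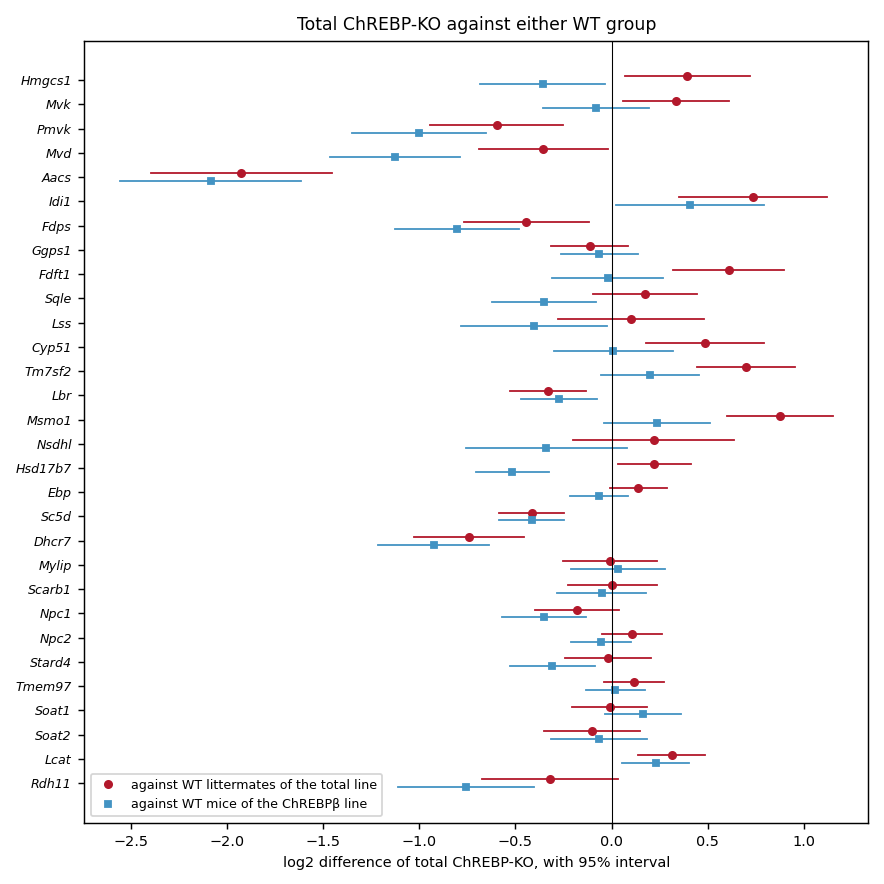
Log2 difference between total ChREBP-KO mice (n = 7) and 2 control groups for the 30 genes: total-line WT mice (red circles, n = 8) and β-line WT mice (blue squares, n = 8), with 95% confidence intervals. Aacs, Dhcr7 and Pmvk lie below 0 against both, while Fdft1 and Cyp51 lie at 0.61 and 0.49 against the first group and at -0.020 and 0.01 against the second.

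Neighboring pathways gave the setting. Of 12 fatty acid synthesis genes 10 were lower in total ChREBP-KO mice, with a median of -2.94. Fasn, the fatty acid synthase, was at -3.16, Acaca, the acetyl-CoA carboxylase, at -2.01, Acly, which supplies cytosolic acetyl-CoA to both pathways, at -2.72, and Scd1, the desaturase, at -3.24. None of the 12 was called between the WT groups. Of 7 genes of the SREBP system 3 were lower in total ChREBP-KO mice: Srebf1, which encodes SREBP1, at -0.91, Insig2, which retains SREBP in the endoplasmic reticulum, at -0.95 and its escort Scap at -0.32. Srebf2, which encodes SREBP2, differed by -0.01 (adjusted p = 0.971). Insig1, itself an SREBP target, differed by -0.10 (adjusted p = 0.506) in total ChREBP-KO mice and by -0.40 between total-line and β-line WT mice (adjusted p = 0.00626).

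Among 11 genes that take mevalonate products to other ends, 2 were higher and 5 lower in total ChREBP-KO mice. Nus1 and Dhdds, the subunits of the enzyme that makes the dolichol chain, moved apart, with Nus1 higher by 0.54 (adjusted p = 1.95e-06) and Dhdds at -0.46 (adjusted p = 0.000136). Pdss1 and Coq2, of ubiquinone synthesis, were at -0.27 and -0.19, Dolk, the dolichol kinase, at -0.23 and Pggt1b, a prenyltransferase subunit, at -0.25. Icmt, which methylates prenylated proteins, was higher by 0.19. Of 6 genes of sterol efflux and its LXR receptors, Abca1, the exporter of cholesterol to apolipoprotein A-I, fell by 0.43 in total ChREBP-KO mice (adjusted p = 4.71e-05) and was higher by 0.33 in total-line than in β-line WT mice (adjusted p = 0.0022).

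Members also varied together between mice of 1 group. After each group's mean was subtracted, the 29 other members were correlated with Hmgcs1 over 31 mice, with mice permuted within groups. Of these, 16 had an adjusted p under 0.05 for Pearson's r, all with positive r, and 12 for Spearman's rho. Genes outside the set were not correlated with Hmgcs1. The counts here and by line therefore have no share of all genes beside them and are given as a description. The closest were Cyp51 (r = 0.899, rho = 0.825), Idi1 (r = 0.892, rho = 0.829), Fdft1 (r = 0.889, rho = 0.733) and Hsd17b7 (r = 0.865, rho = 0.716). The permutation p of these 4 r values was 1e-05, the smallest that 100000 resamples can give (adjusted p = 7.25e-05), and for rho it was 1e-05, 1e-05, 3e-05 and 0.00011. The 2 mice farthest from the median of Hmgcs1 were total ChREBP-KO replicate 4 and total-line WT replicate 5. Without them r was 0.877, 0.865, 0.843 and 0.84, and 15 of the 16 kept an r of at least 0.5. Total ChREBP-KO replicate 5, the array high in Krt19 and Epcam, stayed in, with an Hmgcs1 deviation of -0.59. Correlations, here and by line, were not computed without all the arrays high in markers of other cell types. Within the scan days (15 and 16 mice) r was 0.873 and 0.944 for Cyp51, 0.887 and 0.916 for Idi1, 0.846 and 0.952 for Fdft1 and 0.931 and 0.801 for Hsd17b7. Aacs had r = 0.178 (permutation p = 0.41, adjusted p = 0.54) and rho = 0.162 (permutation p = 0.424, adjusted p = 0.512).

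The correlations were larger in number in the total ChREBP-KO line. There 18 members had an r over 0.5 with Hmgcs1 (15 mice), against 4 in the ChREBPβ line (16 mice), a difference that was not tested. The SD of Hmgcs1 around its group means was 0.405 in the first line and 0.188 in the second, and the part of this range in the correlations was not tested. Fdft1 had r = 0.972 and 0.469 in the 2 lines, Msmo1 0.904 and 0.166, and Tm7sf2 0.836 and 0.027. Cyp51 and Hsd17b7 had r of 0.947 and 0.916 in the total ChREBP-KO line and 0.658 and 0.635 in the ChREBPβ line. These genes also share arrays and normalization.

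**Figure D5:**
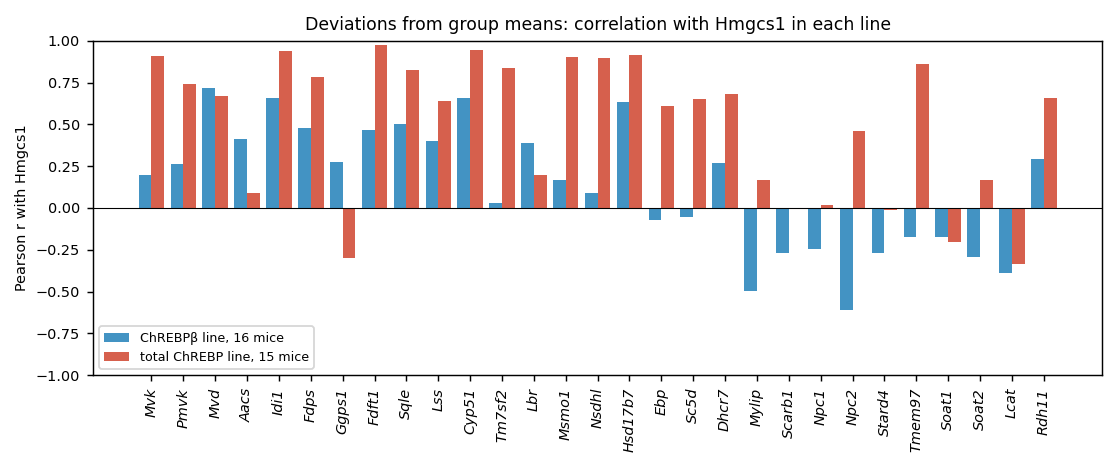
Pearson's r of each member with Hmgcs1, after subtraction of group means, in the ChREBPβ line (16 mice) and in the total ChREBP-KO line (15 mice), by step of the pathway. In the total ChREBP-KO line r reaches 0.972 for Fdft1, while in the ChREBPβ line 4 genes exceed 0.5.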

How the data were processed

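RNA of mouse liver was hybridized to one-color Agilent arrays, 1 per mouse. The authors deposited 1 scanner file per array, made with Feature Extraction 10.10.1.1, which lists an intensity for every spot. A deposited series table of log2 values was made, per the authors' methods, from median intensities by weighting spots, quantile normalization and taking the median over copies of a probe. The log2 values used here repeat these steps on the intensities, without background subtraction, and keep spots that passed on at least 26 arrays or on 6 arrays of 1 group. They lie within -0.027 and 0.0302 of that table between percentiles 1 and 99 of the differences. Between arrays the correlation was 0.9805 to 0.9988, and 34131 to 38612 spots passed per array. The 7 or 8 arrays per group limit the precision.

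All 4 groups entered 1 linear model (R 4.3.3, limma 3.58.1), with Benjamini-Hochberg adjustment over 36059 probes and a threshold of 0.05. The mice were of several litters, and p-values measure the spread between these mice. Members and lists were chosen with earlier results of these data known. All members are accounted for, and those called are named with values by step of the pathway. Scripts were tested on simulated data. Correlations were permuted 100000 times within groups. Alternatives changed the signal, background, normalization, filter, block, test or mice. Gene names and probe positions (mm9) are those of the array annotation. Adipose tissue was not analysed here.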

Additional observations from a re-analysis of the deposited data

Results flagged for a closer look

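Aacs, Pmvk, Dhcr7, Sc5d and Msmo1 differed in their response between the deletions, by the test of the difference itself. The values were -2.06 for Aacs, -0.79 for Pmvk, -0.75 for Dhcr7, -0.63 for Sc5d and 0.76 for Msmo1 on the log2 scale (total ChREBP-KO effect minus ChREBPβ effect). The difference of Msmo1 was not called with the slide as a fixed term (0.70, adjusted p = 0.0657) or within scan day 1 (adjusted p = 0.0992) or 2 (adjusted p = 0.132). Within day 1 none of the 5 was called, and within day 2 the other 4 were. The difference of Pmvk was not called without the 4 arrays high in bile duct or pancreatic markers (-0.67, adjusted p = 0.0526). Single mice stood far from their group in 4 of 120 sets of 1 gene and 1 group, where chance gives about 1 in 20. ChREBPβ-deficient replicate 2 was low in Cyp51 at 12.74 (the other 7 mice were at 13.01 to 13.23) and in Tm7sf2 at 14.34 (others 14.58 to 14.72). Total ChREBP-KO replicate 2 was low in Stard4 at 11.54 (others 11.88 to 12.08), and WT replicate 6 of the same line was low in Tmem97 at 13.16 (others 13.40 to 13.61). The Npc1l1 probe, left out of the tests for its low signal, had a median signal of 277 in total ChREBP-KO replicate 5, the array high in Krt19 and Epcam, against 15.5 to 49 in the other 30 mice.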

How the results depend on the processing

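For total ChREBP-KO mice against WT littermates the 6 higher genes became 3 with the slide as a fixed term, 2 within the second scan day, 3 by an exact Mann-Whitney test and 10 when any probe of a gene counted. They became 10 without the 4 arrays high in bile duct or pancreatic markers, 10 without the 3 arrays high in Cfd and 1 with WT mice of the ChREBPβ line as controls. The 6 lower genes became 3 at a fold change of at least 1.5, 3 without the 4 arrays and 12 with the other WT mice, under which Fdft1 (-0.020), Hmgcs1 (-0.36), Mvk (-0.083) and Hsd17b7 (-0.52) changed sign. For the difference between deletions the 1 higher gene became 3 by processed signal, 2 by the deposited table, 0 with the slide as a fixed term, 0 within either scan day, and 4 and 5 without the 4 or 3 arrays, and the 4 lower genes became 0 within the first scan day. For the WT offset the 11 lower genes became 2 with the slide as a fixed term, 3 and 5 within the scan days and 5 at a fold change of at least 1.5. Scarb1 in ChREBPβ-deficient mice changed sign within the first scan day (0.17). The cause was not tested. Among these alternatives, shares of all genes were computed only without the 4 or 3 arrays and with the other WT mice.

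With 1 mouse left out at a time the counts were 6 to 9 higher and 5 to 7 lower for total ChREBP-KO, 0 for ChREBPβ deficiency, 1 to 5 higher and 4 to 6 lower for the difference, and 0 higher and 7 to 12 lower for the offset, and Scarb1 ran from -0.11 to 0.0046. Same-numbered mice deviated with r from -0.156 to 0.533 in 8 pairs of the ChREBPβ line (6 over 0.1) and from -0.215 to 0.241 in 7 pairs of the total line. Not every pair was over 0.1, so the numbers were not taken to pair the mice. With the replicate block 6 genes were higher and 6 lower in total ChREBP-KO mice. No Mann-Whitney test was run for the difference. The median of all probes moved by under 0.1 between scalings.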
